A study of Mus musculus with 8 samples.

Results

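Interferon-stimulated genes are the transcripts that cells raise when an interferon binds its receptor. The 9 described here are Isg15, Ifit1, Ifit3, Ifi44, Oas2, Irf7, Usp18, Rsad2 and Bst2. They are a list of symbols chosen with earlier results of these data known, and all 9 were found among the 27179 genes of the counts table. All 9 also passed the filter on low counts, which left 18104 tested genes. Their levels come from mRNA sequencing of the whole spine of mouse embryos taken at E18.5. The study crossed sex with genotype, wild type (WT) against Pax1-Enh knockout (KO), in which a genomic region of Pax1 was deleted; Pax1 encodes a transcription factor of the tissue that forms vertebrae and discs. Each of the 4 groups, male WT, male KO, female WT and female KO, held 2 libraries. The labels give no strain, no second allele and no agent, and leave unsaid whether replicates 1 and 2 are different embryos. The p-values therefore describe the spread among these 8 libraries, which may be technical.

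Type I interferons act through the receptor chains Ifnar1 and Ifnar2 and the kinases Jak1 and Tyk2. The signal ends in transcription factors, Irf9 among them, at the interferon-stimulated response element (ISRE) in the promoters of target genes. Without infection most tissues keep the targets at a low, tonic level, set in part by traces of interferon and by nucleic acid sensors. Blood-derived cells such as macrophages and plasmacytoid dendritic cells carry several of them at higher levels. In bulk tissue fewer cells of a type and less RNA per cell cannot be told apart.

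The members have different jobs. Isg15 encodes a ubiquitin-like protein that is joined to other proteins, and Usp18 encodes the protease that removes it and also dampens receptor signalling. Ifit1 encodes a protein that binds foreign RNA, and Ifit3 a protein of the same family. Oas2 encodes a synthetase that switches on the RNA-degrading enzyme RNase L. Rsad2 (viperin) encodes an enzyme that makes a chain-ending nucleotide, and Bst2 (tetherin) a membrane protein that holds budding virus. Irf7 encodes the transcription factor that amplifies interferon production. Ifi44 encodes an interferon-induced cytoplasmic protein. By the RefSeq annotation of GRCm38, the assembly also called mm10, the gene spans are as follows. Isg15 (Entrez 100038882) at chr4:156199424-156200818, Ifit1 (Entrez 15957) at chr19:34640889-34650009 and Ifit3 (Entrez 15959) at chr19:34583119-34588982 are the first 3 of the list. The next 3 are Ifi44 (Entrez 99899) at chr3:151730922-151749910, Oas2 (Entrez 246728) at chr5:120730333-120749886 and Irf7 (Entrez 54123) at chr7:141263183-141266499. The last 3 are Usp18 (Entrez 24110) at chr6:121245906-121270917, Rsad2 (Entrez 58185) at chr12:26442743-26456452 and Bst2 (Entrez 69550) at chr8:71534255-71537472. Each span holds exons and introns, and the counts are per gene.

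Matches to the ISRE are shown first, because it is the element through which interferon acts on such genes; they were seen in 5 of the 9 members. RefSeq promoters on GRCm38.p6, from 250 bases before to 50 bases after the start, were at hand for 7 of the 9 members, and not for Oas2 and Usp18. The core searched was GAAA, any 2 bases, then GAAA, on both strands, so that on the opposite strand it reads TTTC, any 2 bases, then TTTC. Matches could overlap. The core was found in 5 of the 7 promoters, while 3.44% of all 32851 RefSeq promoters of this length held it. The windows below run 5′ to 3′ on the gene's own strand, with the matched core in capitals and 10 bases on each side. They lie at chr4:156200865-156200906 (minus strand) for Isg15, chr19:34640775-34640823 (plus) for Ifit1, chr19:34583363-34583392 and chr19:34583397-34583426 (plus) for Ifit3, chr12:26456553-26456582 (minus) for Rsad2 and chr8:71537577-71537612 (minus) for Bst2.
Isg15: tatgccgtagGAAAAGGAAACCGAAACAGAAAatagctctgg
Ifit1: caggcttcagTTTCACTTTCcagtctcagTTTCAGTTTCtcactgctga
Ifit3, farther from the start: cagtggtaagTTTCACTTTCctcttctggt
Ifit3, nearer to the start: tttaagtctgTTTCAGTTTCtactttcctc
Rsad2: ctggtccaacTTTCATTTTCagaaaacaga
Bst2: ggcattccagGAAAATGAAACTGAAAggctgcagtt

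The first match began 78 bases before the start in Isg15, where 3 matches overlap, 104 bases before it in Ifit1, 156 in Ifit3, 120 in Rsad2 and 130 in Bst2. The Ifit3 windows lie inside its gene span given above, which begins upstream of the start used for this promoter. In the windows of Ifi44 and Irf7 these letters were not present. Counted by gene, with a match in any of its promoters, 3.99% of 27025 genes with a promoter held the core, and 3.69% of the tested ones. Of 41 other interferon-stimulated genes with a promoter 18 held it (43.9%), as did 11 of 23 antigen presentation and type II response genes (47.8%). It was also held by 4 of 18 sensor genes (22.2%), 1 of 6 IRF genes (16.7%) and 2 of 13 receptor and signalling genes (15.4%). A match is a description of the letters and shows no binding. The whole promoter of Rsad2, the member whose levels separated the sexes, lies at chr12:26456403-26456702 (minus strand), with its single match in capitals.
Rsad2 promoter: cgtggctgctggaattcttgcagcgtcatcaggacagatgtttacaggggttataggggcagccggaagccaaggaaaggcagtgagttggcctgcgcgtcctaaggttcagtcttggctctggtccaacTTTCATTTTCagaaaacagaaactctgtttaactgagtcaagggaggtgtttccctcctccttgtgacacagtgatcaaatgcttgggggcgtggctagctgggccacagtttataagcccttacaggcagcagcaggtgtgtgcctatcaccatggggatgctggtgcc

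Library totals ran from 35181518 to 67575728 counts, and all 4 KO libraries were deeper than all 4 WT libraries. Levels are given as CPM, the count per 1000000 counts of the library, with library sizes normalised by TMM (trimmed mean of M-values, edgeR). All 11 spine markers were detected, with cartilage collagen Col2a1 at 3526 to 22470 CPM. Some libraries stood apart. Genes of the mitochondrial genome took 13.6% to 20.9% of counts in male WT 1, male WT 2, male KO 2 and female KO 1, and 4.56% to 7.27% in the other 4 libraries. Brown fat transcripts were highest in male WT 1 and female WT 2 (Ucp1 at 419.6 and 889 CPM, against 1.45 to 49.6 CPM elsewhere). The pancreatic gene Ctrb1 stood at 473 CPM in female WT 1 and at no more than 0.887 CPM in the other 7 libraries.

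Levels were divided by exon length to compare genes (RPKM, from the union of GENCODE M21 exons). Bst2 was the most abundant member at 29.2 ± 8.47 RPKM (mean and SD over 8 libraries). Its range, 17.3 to 41.8 RPKM, did not overlap that of Isg15, which came next at 9.05 ± 3.73 RPKM. Ifit3 followed at 3.94 ± 2.61, then Rsad2 at 2.58 ± 1.52, Ifit1 at 2.36 ± 1.52, Irf7 at 1.93 ± 0.970, Usp18 at 1.43 ± 0.610, Ifi44 at 0.992 ± 0.437 and Oas2 at 0.637 ± 0.334 RPKM. From Isg15 downwards each gene's range over the libraries overlapped that of its neighbour in this order. Bst2 also varied least, 2.42-fold between its lowest and highest library, while Ifit1 varied 13.5-fold.

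The ligands were close to absent. Of 21 genes for type I, II and III interferons, 14 had 0 counts in all 8 libraries, and the whole list gathered 46 counts. Ifnb1, the interferon-beta gene, had 2 counts in male WT 1 and 0 in the other libraries, where 3 counts, the limit that a count of 0 allows, correspond to 0.0392 to 0.0831 CPM. Ifng, the type II interferon, had 1 to 5 counts per library. None of the 21 was tested.

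The effector genes were lowest in female WT 1. Isg15 levels were 9.35 and 5.84 CPM (male WT), 10.8 and 8.23 CPM (male KO), 1.87 and 7.12 CPM (female WT), and 7.07 and 4.44 CPM (female KO). The genotypes overlapped in both sexes, and female WT 1 was the lowest library. Ifit1 levels were 12.4 and 7.82 CPM (male WT), 6.67 and 10.1 CPM (male KO), 0.922 and 2.44 CPM (female WT), and 7.36 and 2.42 CPM (female KO). All 4 male libraries were above 3 of the 4 female ones, and female KO 1 lay among the males.

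Ifit3 levels were 12.5 and 5.84 CPM (male WT), 7.68 and 13.8 CPM (male KO), 1.48 and 2.96 CPM (female WT), and 8.14 and 2.63 CPM (female KO). Here too female KO 1 lay among the males and the other 3 female libraries below them. Ifit3 shares 51.2% of its transcript 50-mers with its copy Ifit3b, so how reads were divided between them is uncertain. Ifit3b itself was at 0.315 to 2.94 CPM, and Ifit1 shares 7.13% of its 50-mers with other genes, chiefly Ifit1bl2.

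Ifi44 levels were 9.74 and 7.82 CPM (male WT), 6.48 and 6.89 CPM (male KO), 1.35 and 4.71 CPM (female WT), and 7.91 and 3.74 CPM (female KO). Here both male KO libraries lay below both male WT libraries. Its neighbour Ifi44l had too few counts to be tested (0.0142 to 0.138 CPM). Oas2 levels were 3.50 and 1.98 CPM (male WT), 5.32 and 4.16 CPM (male KO), 0.945 and 1.97 CPM (female WT), and 3.30 and 1.49 CPM (female KO), so that both male KO libraries lay above both male WT ones and the female genotypes overlapped.

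Rsad2 was the member with the cleanest split by sex. Rsad2 levels were 17.6 and 9.41 CPM (male WT), 19.8 and 19.1 CPM (male KO), 3.06 and 7.18 CPM (female WT), and 6.89 and 6.43 CPM (female KO). Every male library was above every female library, and both male KO libraries were above both male WT ones. Cmpk2, the nucleotide kinase gene beside Rsad2, overlapped between the sexes, at 16.3 to 21.9 CPM in males and 11.2 to 16.9 CPM in females.

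Of the regulators, Irf7 levels were 9.22 and 4.80 CPM (male WT), 14.5 and 7.54 CPM (male KO), 2.72 and 7.87 CPM (female WT), and 7.69 and 4.06 CPM (female KO). Usp18 levels were 6.56 and 3.64 CPM (male WT), 4.69 and 5.26 CPM (male KO), 1.06 and 4.16 CPM (female WT), and 4.23 and 2.32 CPM (female KO). In both genes the genotypes overlapped within each sex and female WT 1 was again lowest. Irf7, Oas2 and Usp18 each lie across another annotated gene on the opposite strand (Phrf1, Gm43068 and Gm44148), and the strand setting of the counting is not given in the sources used here.

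Bst2 differed from the rest. Bst2 levels were 29.2 and 15.6 CPM (male WT), 34.7 and 27.6 CPM (male KO), 19.2 and 37.7 CPM (female WT), and 25.9 and 20.6 CPM (female KO). Its highest library was female WT 2 and its lowest male WT 2, and neither sex nor genotype separated its values.

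**Figure D1:**
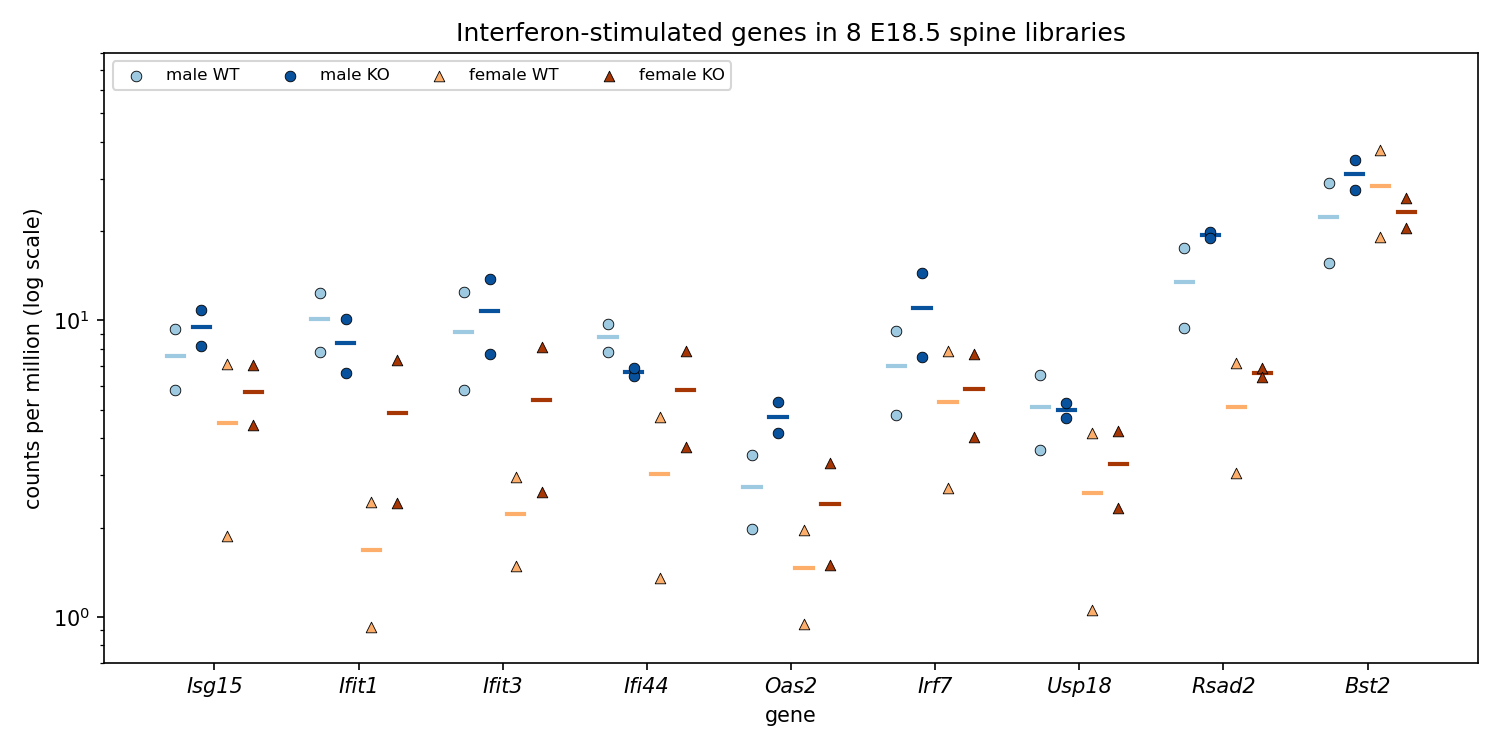
Level of each member in CPM (log scale) in the 8 libraries, with circles for male and triangles for female libraries and a short bar at each group mean of 2 libraries. The male libraries of Rsad2, at 9.41 CPM and above, all sit above the female ones, while Bst2 shows no such split.

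The members other than Bst2 tracked each other from library to library. Over the 8 libraries the Pearson correlation of log2 CPM between pairs of members without Bst2 had a median of 0.880 (28 pairs, 0.684 to 0.972), and for the 8 pairs with Bst2 a median of 0.520 (0.213 to 0.794). These libraries span both sexes and genotypes and differ in depth and composition, so the values describe the set of libraries. The pair correlations were not computed without female WT 1, nor for pairs of other genes. Female WT 1 was the lowest library for 8 of the 9 members and female KO 2 was among the lowest 2 for 8 of them. Male KO 1 was highest for 4, male WT 1 for 3, male KO 2 for 1 and female WT 2 for 1.

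Genes with the most similar pattern were ranked by Pearson correlation with the mean of the 9 scaled members over 8 libraries. The first was Gbp3, an interferon-inducible GTPase gene (0.981), followed by a gene without a symbol, Ifi208 (0.973), Sp100 (0.971), Ddx60 (0.964), Slfn8 (0.964), the muscle ribosomal protein gene Rpl3l (0.964), Parp9 (0.963), Zbp1, a sensor of Z-form nucleic acid (0.956), and another gene without a symbol. Of these 10, 6 were on the interferon lists used here. Over 52 other interferon-stimulated genes the correlation had a median of 0.700 and was above 0.8 in 19, against a median of 0.001 and 210 above 0.8 among 18095 tested genes that are no members. For single members the leading genes were Rpl3l (0.968), Gbp3 (0.967) and Usp18 (0.967) for Isg15, and Oasl2 (0.970), Tor3a (0.964) and Dtx3l (0.960) for Irf7. For Bst2 they were Slc25a34 (0.983), the sensor gene Ddx58 (0.974) and the glucose transporter gene Slc2a4 (0.967). Ranked by Spearman correlation instead, the 10 for the mean of the members shared 1 gene with these and the 3 sets of 3 shared 0.

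**Figure D2:**
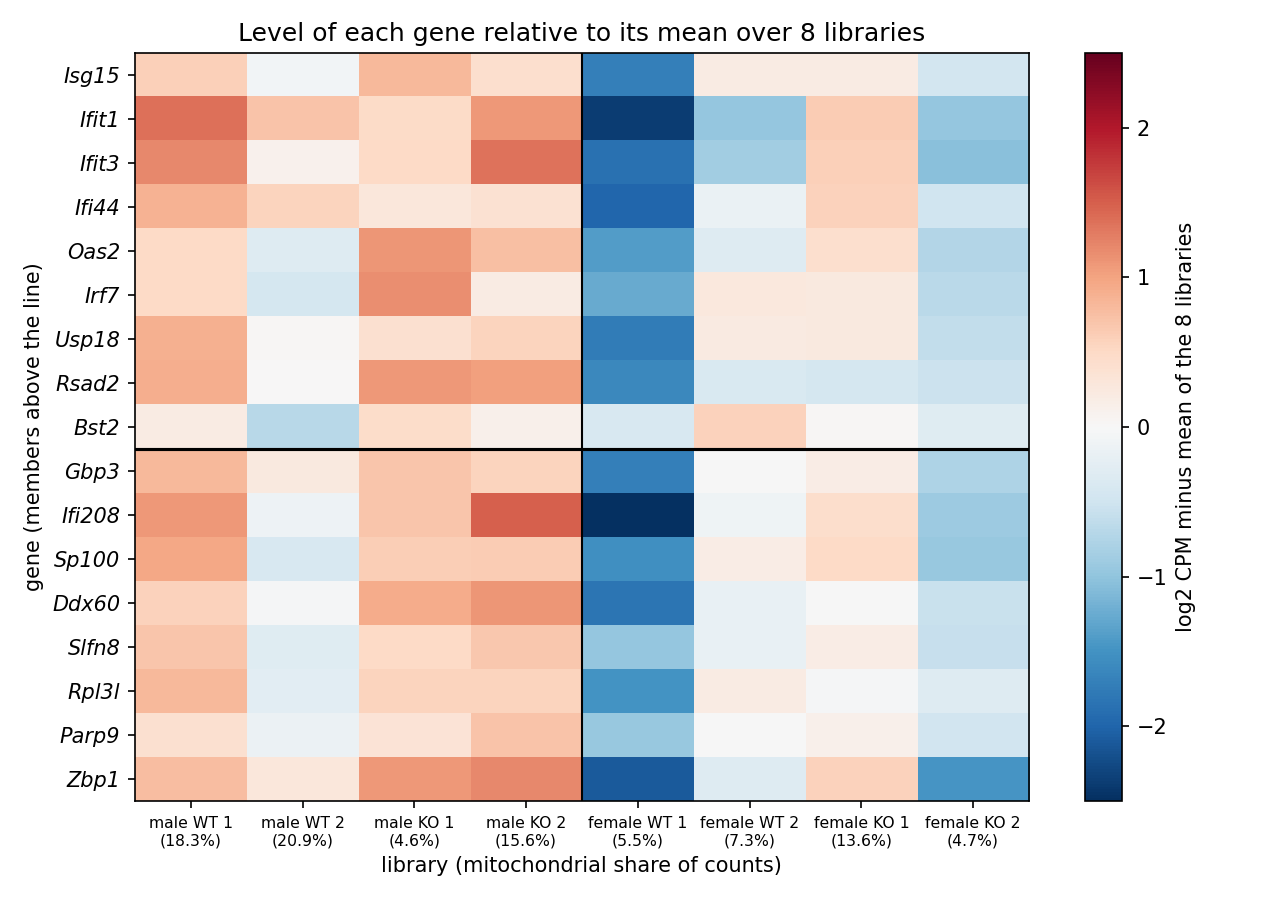
Colour shows log2 CPM of each gene in each library minus its mean over the 8 libraries, with the members above the line and the named genes of most similar pattern below it. The mitochondrial share of counts is given under each library. Female WT 1, at 5.5%, is the bluest column for 8 of 9 members.

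The main comparison asked whether the KO altered these genes. Over both sexes, with 4 libraries per genotype and sex as a term, all 9 members had a positive log2 fold change (KO minus WT), and none passed. The median was 0.41, against -0.01 over all tested genes, of which 48.9% were positive. Of the members, 0 had an adjusted p under 0.05 in edgeR's quasi-likelihood test and 0 an unadjusted p under 0.05 (0% and 6.83% of all genes). DESeq2 called 0 of the 9, and 0.779% of all genes. Oas2 had the largest value, 0.76 (SE 0.35, edgeR adjusted p = 0.744, 95% interval of the fold 0.975 to 2.93). Ifit3 had 0.74 (SE 0.46), Ifit1 0.61 (SE 0.52), Rsad2 0.46 (SE 0.29), Irf7 0.41 (SE 0.40), Isg15 0.34 (SE 0.38), Ifi44 0.27 (SE 0.44), Usp18 0.15 (SE 0.41) and Bst2 0.09 (SE 0.30). No member separated the 4 KO from the 4 WT libraries, as 1.68% of all genes did upwards and 1.63% downwards. The count of positive members was 6 without female WT 1, 7 without female KO 1, 8 without male WT 2 or male KO 1 and 8 with the mitochondrial share of counts as a covariate, an alternative added after the data were seen. Without female KO 1 Ifit1 was 0.0484 and Ifit3 0.24. The median was 0.77 without female WT 2 and 0.20 without female KO 1. Sums of tissue markers separated the genotypes. The sum of 11 spine genes was 11730 to 22960 CPM in WT and 24160 to 48550 CPM in KO. That of 6 fat genes was 738.3 to 5152 CPM in WT and 232.1 to 467.2 CPM in KO. Taken singly, 0 of the 11 spine genes separated the genotypes, and 5 of the 6 fat genes did, lower in KO. Of the spine and fat genes 0 passed after adjustment in edgeR. None of these genes was at 0 in all libraries, and their part in the members' values was not tested.

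In males 6 of 9 members were positive (median 0.33, against -0.06 over all genes, of which 45.4% were positive). In edgeR 0 members passed after adjustment (0% of genes) and 0 had an unadjusted p under 0.05 (14.8% of genes, 7.53% higher and 7.29% lower in KO). DESeq2 called 0 members and 2.69% of genes. Oas2 had 0.79 (SE 0.50, edgeR adjusted p = 0.460) and Irf7 0.66 (SE 0.57), while Ifi44 had -0.39 (SE 0.53), Ifit1 -0.27 (SE 0.57) and Usp18 -0.04 (SE 0.58). The 2 male genotypes did not overlap for Oas2 and Rsad2 (KO higher) and Ifi44 (KO lower), in a comparison where 19.7% of all genes were so upwards and 23.9% downwards. Leaving out male WT 1 put the male median at 0.88, and leaving out male WT 2 put it at 0.03. Oas2 was 0.44 without male WT 2. With the same covariate Ifit1 in males was 0.63 and Ifi44 0.18, both with the opposite sign.

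In females 8 of 9 members were positive (median 0.38, against 0.03 over all genes, of which 52.6% were positive). In edgeR 0 passed after adjustment (0% of genes) and 1, Ifit1, had an unadjusted p under 0.05 (9.27% of genes, 4.53% higher and 4.74% lower in KO). DESeq2 called 0 members and 0.795% of genes. Ifit1 had 1.55 (SE 0.61, edgeR adjusted p = 0.532, 95% interval of the fold 1.12 to 7.63), Ifit3 1.28 (SE 0.62), Ifi44 0.95 (SE 0.55) and Oas2 0.72 (SE 0.51), and Bst2 had -0.29 (SE 0.39). No member separated the female genotypes without overlap, as 25.9% of genes did upwards and 26.2% downwards. Each of the 4 female libraries moved these values. Without female WT 1 the median was -0.12 with 4 members positive, and without female WT 2 it was 1.62 with 9 positive and 6 at an unadjusted p under 0.05. Leaving out female KO 1 gave a median of 0.0456 with 5 positive, Ifit1 at 0.54, Ifit3 at 0.25, Ifi44 at 0.31 and Oas2 at 0.0456. Leaving out female KO 2 gave a median of 0.71, with Ifit3 at 1.88.

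The difference between the sexes in the KO effect was tested as an interaction. It passed for 0 of 9 members in edgeR (0% of all genes). At an unadjusted p under 0.05 it held 0 members and 16.7% of genes (9.61% positive and 7.13% negative), and DESeq2 called 0 members and 1.99% of genes. Of the members 5 were positive, as were 51.7% of genes. The largest values, female effect minus male effect, were 1.82 for Ifit1 (SE 0.83, edgeR adjusted p = 0.309), 1.34 for Ifi44 (SE 0.77) and 1.05 for Ifit3 (SE 0.85), and the lowest was -0.77 for Bst2 (SE 0.55). Without female WT 2 the median over members was 1.26, and without female WT 1 it was -0.54, from 0.03 with all libraries. Without female KO 1 Ifit1 was 0.81 and Ifit3 0.0184. With the mitochondrial share as a covariate 2 of 9 members were positive, Ifit1 being 0.51, Ifi44 0.56 and Ifit3 -0.30.

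Sex was compared in the same way. Over both genotypes all 9 members had a negative log2 fold change (female minus male), with a median of -0.86, while the median over all genes was -0.0044 and 49.5% of genes were positive. In edgeR 0 of 9 passed after adjustment, where 0.0166% of genes did (0.00552% higher and 0.0110% lower in females). An unadjusted p under 0.05 was held by 4 of 9, all lower in females, and by 8.67% of genes (3.38% higher and 5.29% lower). DESeq2 called 2 members as lower in females, Rsad2 and Ifit1, out of the 1.30% of genes that it called in either direction. Rsad2 had -1.47 (SE 0.29, edgeR adjusted p = 0.325, DESeq2 adjusted p = 9.782e-04), with means of 16.5 ± 4.80 CPM in males and 5.89 ± 1.91 CPM in females (SD, n = 4 each). Its 4 female libraries lay below all 4 male ones, as in 1.88% of genes (2.23% the other way, with 0 members), and the 95% interval of the female to male fold was 0.228 to 0.569. Ifit1 had -1.66 (SE 0.53, edgeR adjusted p = 0.474, DESeq2 adjusted p = 0.0476), with 9.26 ± 2.56 CPM in males and 3.28 ± 2.81 CPM in females.

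The other members were lower in females by values that passed in neither tool. Ifit3 had -1.51 (SE 0.46, edgeR adjusted p = 0.456, DESeq2 adjusted p = 0.0543) and Oas2 -0.95 (SE 0.35). Ifi44 had -0.86 (SE 0.45), Usp18 -0.79 (SE 0.42), Isg15 -0.74 (SE 0.38) and Irf7 -0.66 (SE 0.40). Bst2 had -0.04 (SE 0.30, edgeR adjusted p = 0.960), with a 95% interval of the fold from 0.609 to 1.55. Without female WT 1 the median was -0.47, and without female KO 1 it was -1.21. Bst2 was 0.13 without female KO 2.

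**Figure D3:**
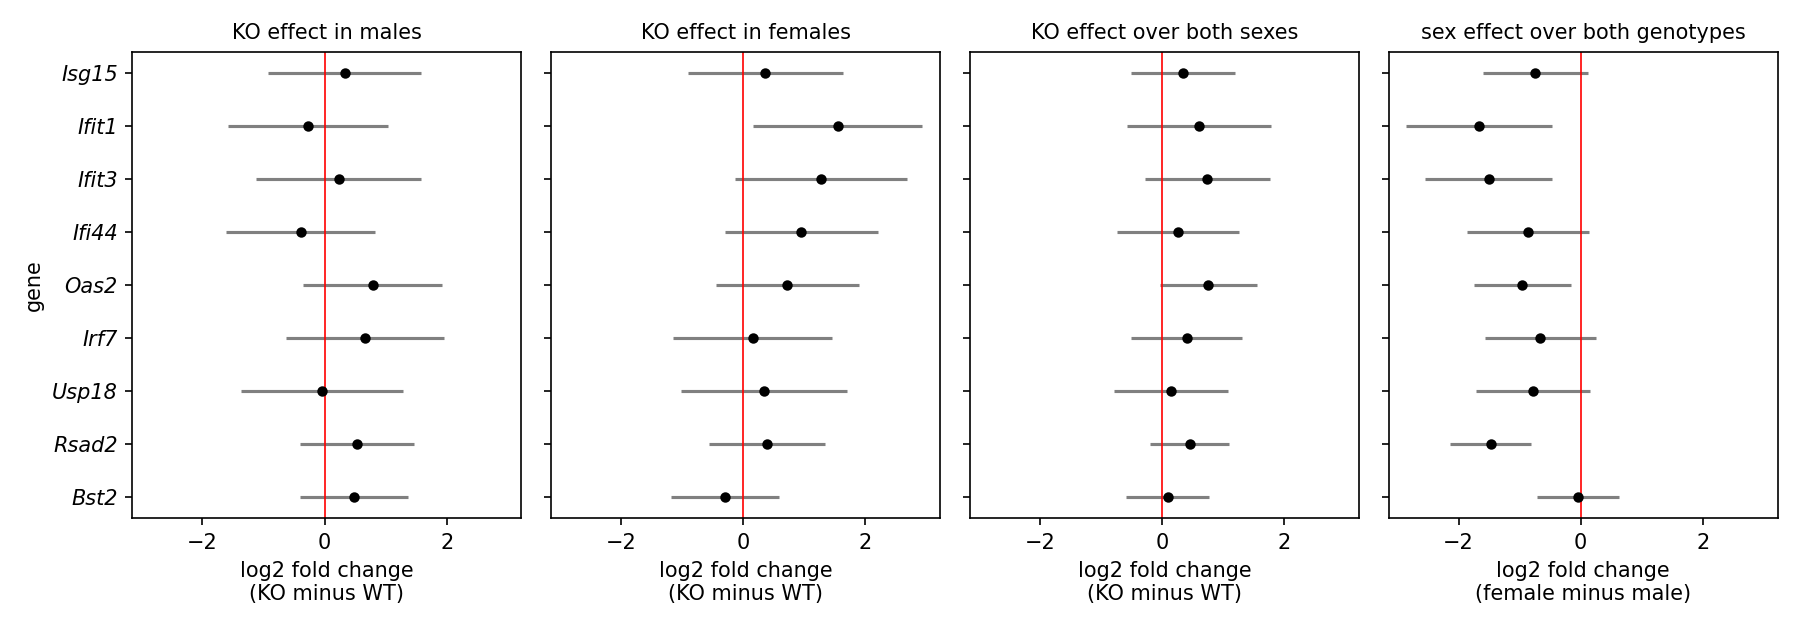
Log2 fold change of each member with its 95% interval from edgeR's quasi-likelihood fit, in 4 comparisons, with the red line at 0. All 9 points lie right of 0 for the KO over both sexes and left of 0 for females against males, where Rsad2 (-1.47) has the interval farthest from 0.

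The mitochondrial share is unevenly spread over the sexes, with 3 male libraries and 1 female in the high class and the reverse in the low class. Ifit1 and Ifi44 did not overlap between these classes (7.36 to 12.4 against 0.922 to 6.67 CPM for Ifit1, and 6.89 to 9.74 against 1.35 to 6.48 CPM for Ifi44), both being higher where the share was high, as for 14.5% of all genes. Within the low class the 1 male library was above the 3 female ones for 8 of 9 members, the exception being Bst2, as for 25.3% of genes. Within the high class the 3 male libraries were above the 1 female one for 2 members, Ifit1 and Rsad2, as for 22.1% of genes. With this share as covariate, the sex value was -1.51 for Rsad2, -0.99 for Ifit1, -0.93 for Ifit3 and -0.41 for Ifi44. Over the main fit and all alternatives except leaving out a library, this covariate among them, the median of the 9 members was -0.86 to -0.78. In the same settings Oas2 ran from -0.95 to -0.90, Isg15 from -0.75 to -0.70 and Irf7 from -0.78 to -0.60. Usp18 ran from -0.79 to -0.55 and Bst2 from -0.23 to -0.03.

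Markers of other cell types were also compared between the sexes, and 0 of those described here passed after adjustment in edgeR. The summed level of 8 neutrophil genes was 487.4 to 1243 CPM in males and 108.8 to 450.8 CPM in females. In edgeR 6 of the 8 had an unadjusted p under 0.05 as lower in females (5.29% of all genes). S100a8, a granule protein gene of neutrophils, had -2.19 (SE 0.47, edgeR adjusted p = 0.347), with all 8 genes above 0 in every library. The liver gene Alb was at 58.8 to 837 CPM in males and 19.3 to 70.5 CPM in females, ranges that overlap. It is 1 of 4 genes of neighbouring organs, of which 3 were negative and 1 positive (6.83). Of 8 endothelial genes 7 were higher in females, with a median of 0.31. All 6 B-lymphoid genes were lower in females, with a median of -0.53 and 1 at an unadjusted p under 0.05 in edgeR. Their sum overlapped, at 5.05 to 8.92 CPM in males and 4.79 to 5.25 CPM in females. Of 4 erythroid genes 2 were negative and 2 positive. The sum of 10 macrophage genes overlapped, at 288.0 to 397.2 CPM in males and 265.3 to 342.0 CPM in females, with 7 of 10 negative and a median of -0.16. The sum of 8 plasmacytoid dendritic genes was 298.5 to 421.9 CPM in males and 322.8 to 422.2 CPM in females. The 8 were Siglech, Ccr9, Klk1, Cox6a2, Irf8, Tcf4, Runx2 and Bst2, the last also a member. Of the 7 tested, 5 were negative and 2 positive, and 1 was lower in females at an unadjusted p under 0.05 in edgeR (5.29% of all genes). For 2 of the 7 all female libraries lay below all male ones, as in 1.88% of genes. The defining marker of these cells, Siglech, was at 0.850 to 1.36 CPM in males and 0.495 to 0.840 CPM in females, ranges that do not overlap. Nearly all of the sum therefore came from the other genes of the list. The part of these cells in the difference was not tested.

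Other genes of the pathway were described from lists chosen with earlier results of these data known. Of 53 other interferon-stimulated genes 52 were tested, and 43 were lower in females (median -0.50, against -0.0044 over all genes), 0 after adjustment in edgeR, with 11 lower and 1 higher at an unadjusted p under 0.05 (5.29% and 3.38% of genes). Ifi27l2a had -1.38 (SE 0.36), Ifit2 -0.90 (SE 0.24) and the helicase gene Ddx60 -1.19 (SE 0.36), while Slfn9 had 0.68 (SE 0.21). DESeq2 called Ifi27l2a (adjusted p = 0.0237). For the KO over both sexes 40 of the 52 were positive (median 0.21), with 0 passing in edgeR and 2 higher and 1 lower at an unadjusted p under 0.05 (2.84% and 3.99% of genes). Mx1, an antiviral GTPase gene, had 1.06 (SE 0.42), Ifit3b 1.03 (SE 0.41) and Ifit1bl1 0.83 (SE 0.42).

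Ifi27 had a value of the other sign, -1.45 (SE 0.50, edgeR adjusted p = 0.672) for the KO over both sexes. Its WT levels were 99.8 and 42.3 CPM (male) and 46.4 and 233.7 CPM (female), and its KO levels 40.5 and 38.0 CPM (male) and 30.6 and 37.2 CPM (female). All 4 WT libraries were above all 4 KO libraries, as in 1.63% of genes, and the highest 2 were the libraries richest in brown fat transcripts. Without female WT 2 the value was -0.68. The part of brown fat was not tested.

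Genes of antigen presentation and the type II response gave 24 of 30 lower in females (median -0.23), with 0 passing in edgeR. At an unadjusted p under 0.05, 7 were lower (5.29% of genes). Iigp1, a GTPase gene of vacuole defence, had -1.82 (SE 0.52) and was called by DESeq2 (adjusted p = 0.0208). Ifi47 had -1.09 (SE 0.33), Gbp6 -0.92 (SE 0.30) and Gbp7 -0.88 (SE 0.29). For the KO over both sexes the median of these 30 was 0.08, with 19 positive and 0 passing. The proteasome activator genes Psme1 (-0.64, SE 0.23) and Psme2 (-0.58, SE 0.23) were at an unadjusted p under 0.05 (3.99% of genes lower). Gbp5 had 0.62 (SE 0.34) and Ifi47 0.55 (SE 0.32). Psme2 was -0.30 and Psme1 -0.43 without female WT 2.

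The genes upstream of the targets come next. The 16 receptor and signalling genes had a median of -0.07 (female minus male) with 0 passing in edgeR at either threshold, and the largest absolute values were -0.37 for Irf9 (SE 0.22) and -0.36 for the kinase gene Jak2 (SE 0.20). Socs3, a feedback inhibitor, had -0.35 (SE 0.29) and Tyk2 0.29 (SE 0.19). Under the mitochondrial covariate these became -0.33 for Irf9, -0.0707 for Jak2, -0.74 for Socs3 and 0.0753 for Tyk2. For the KO over both sexes their median was -0.02 with 0 passing, Socs3 at 0.50 (SE 0.29), Ifnar2 at -0.34 (SE 0.19), Irf9 at 0.31 (SE 0.22) and Pias1 at 0.26 (SE 0.16). The 24 nucleic acid sensors and their adaptors had a median of -0.05 for sex, with 0 passing in edgeR. At an unadjusted p under 0.05, 4 were lower and 2 higher in females (5.29% and 3.38% of genes). Tlr7, an X-linked sensor of single-stranded RNA, had -1.44 (SE 0.39), Ifi204 -1.64 (SE 0.49) and Ifih1 (MDA5) -1.11 (SE 0.33), and the RNase H2 subunit gene Rnaseh2c had 0.55 (SE 0.17). DESeq2 called Tlr7 (adjusted p = 0.0294) and Ifi204 (adjusted p = 0.0388). For the KO the sensors had a median of 0.16 with 0 passing, among them Rnaseh2c at -0.47 (SE 0.17), Tlr8 at 0.86 (SE 0.46), Dhx58 at 0.43 (SE 0.22) and Trim25 at 0.42 (SE 0.25). With the mitochondrial share of each library as covariate, the sex value of Tlr7 was -0.68, that of Ifi204 -0.85, that of Iigp1 -1.01 and that of Ifit2 -0.47.

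The 7 IRF transcription factor genes other than Irf7 and Irf9 had a median of -0.02 for sex and -0.03 for the KO, with 0 passing in either. Irf3, which carries the sensors' signal to the interferon genes, had 0.47 (SE 0.19) for sex and -0.32 (SE 0.19) for the KO. Irf4 had -0.56 (SE 0.60) for sex. Irf1 and Irf8 had 0.11 (SE 0.20) and 0.16 (SE 0.30) for sex, and 0.06 (SE 0.20) and -0.07 (SE 0.30) for the KO, and Irf5 had 0.04 (SE 0.26) for the KO. The signs of Irf1 and Irf8 for sex and of Irf1 and Irf5 for the KO changed with the mitochondrial share as a covariate.

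**Figure D4:**
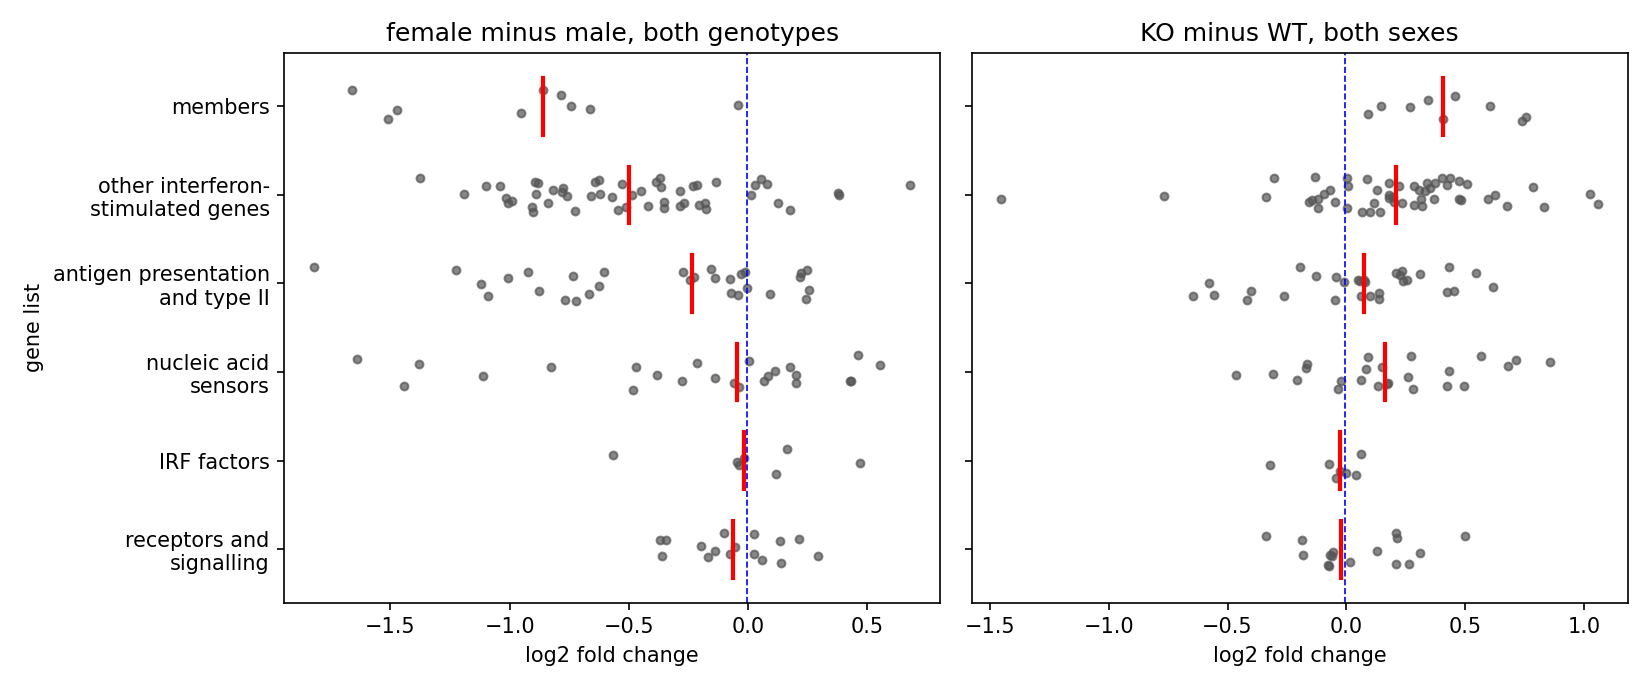
Log2 fold change of each tested gene of 6 lists for females against males (left) and KO against WT (right), with points shifted at random only in the vertical direction. A red bar marks the median of a list and a dashed blue line the median of all 18104 tested genes. The members have medians of -0.86 (left) and 0.41 (right), and the receptor list has medians of -0.07 and -0.02.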

How the data were processed

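Whole E18.5 spines were profiled in 8 libraries with a stranded polyadenylated RNA kit, per the labels' protocols. The authors deposited 1 table of whole-number read counts per Entrez gene, not normalised. FastQC, MultiQC, HISAT2, featureCounts and mm10 are named in the submitters' processing notes. For the counting, the annotation, strand setting and handling of multi-mapping reads were not given in the sources used here. Of 27179 genes, 25275 took a symbol from RefSeq (GRCm38.p6). Genes without one took 0.380% to 1.64% of counts.

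Genes were filtered with filterByExpr (minimum count 10) and fitted with edgeR 4.0.16 under R 4.3.3 (TMM, quasi-likelihood), with 4 group means for effects within a sex and the interaction, and sex plus genotype for effects over both. Adjusted p-values are Benjamini-Hochberg over 18104 genes, two-sided, threshold 0.05. SE is the log2 fold change divided by the square root of F. Log2 CPM used a prior count of 2. DESeq2 1.42.0, another scaling, no filter, removal of mitochondrial genes, a replicate block and leaving out each library were alternatives. The scripts were tested on simulated data. Depth limits precision, and counting intervals cover counting error only.

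Members and lists were chosen with earlier results of these data known. Named were all members, up to 4 genes of each list with the smallest p, and the genes of highest correlation (10 with the members' mean, 3 each for Isg15, Irf7 and Bst2), with close paralogs. Cmpk2, S100a8, Alb, Siglech and other markers were named after their values were seen.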

Additional observations from a re-analysis of the deposited data

How the results depend on the processing

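The fits had 4 or 5 residual degrees of freedom from 2 libraries per group, which limits precision. KO libraries were deeper than WT libraries, and depth and genotype cannot be told apart. Over the 85 gene and comparison pairs named, 1117 of 1190 alternative values kept their direction and side of the threshold, 67 changed sign, 6 passed and 0 were lost. None of these pairs had an adjusted p under 0.05 in the main edgeR fit. Keeping the side therefore meant only not passing, and the 0 lost was fixed in advance. The 1190 values also include KO effects within a sex refitted without a library of the other sex. The count kept is therefore not a measure of robustness. The cause of the changes below was not tested.

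Over all genes, edgeR called 0, 0, 0, 0 and 3 genes (KO in males, in females and over both sexes, the interaction, and sex). DESeq2 called 487, 144, 141, 361 and 235, with 2 members under sex. Without the filter on low counts edgeR called 39 for KO in males, 1 for the interaction and 12 for sex. With the mitochondrial share as covariate, added after the data were seen, it called 2 for KO in females and 7 for sex. Leaving out 1 library gave 0 to 33 for KO in females and 0 to 9 for the interaction, both highest without female WT 2, and 2 to 35 for sex, highest without male KO 2 and 5 without female KO 1.

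Usp18 in males changed sign to 0.0010 (DESeq2, and its size factors in edgeR), 0.0188 without mitochondrial genes and 0.42 with the covariate. Isg15 in the interaction became -0.0163 (size factors), -0.0178 (DESeq2), -0.0128 (without mitochondrial genes) and -0.13 (covariate). With the covariate Ifit1 and Ifi44 in males became 0.63 and 0.18, Bst2, Irf1 and Irf5 over both sexes -0.0021, -0.0616 and -0.0780, Ifit3 and Usp18 in the interaction -0.30 and -0.23, and Irf1 and Irf8 under sex -0.12 and -0.20.

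Values that changed sign when 1 library was left out ran over these ranges. KO in males gave Ifit1 -0.60 to 0.10, Ifit3 -0.25 to 0.88 and Usp18 -0.39 to 0.45. KO in females gave Isg15 -0.32 to 1.62, Irf7 -0.43 to 1.10, Usp18 -0.35 to 1.62, Rsad2 -0.12 to 1.12 and Bst2 -0.71 to 0.27. KO over both sexes gave Ifi44 -0.11 to 0.47, Usp18 -0.15 to 0.57, Bst2 -0.14 to 0.41, Irf1 -0.0946 to 0.16, Irf8 -0.38 to 0.0879 and Irf5 -0.16 to 0.24. The interaction gave Isg15 -0.67 to 1.26, Oas2 -0.75 to 0.52, Irf7 -1.11 to 0.42, Usp18 -0.34 to 1.63 and Rsad2 -0.67 to 0.56. Sex gave Bst2 -0.33 to 0.13, Irf1 -0.0101 to 0.28 and Irf8 -0.0158 to 0.48.

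Replicate numbers are only numbers in the labels. Same-numbered libraries deviated together with correlations of -0.531 to 0.178 over the 6 pairs of groups. With the replicate number as a block, edgeR called 0 genes for each KO comparison and the interaction and 2 for sex, none of them a member. Crossing the numbers of female WT gave the same counts.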
